A study of Mus musculus with 2 samples.

Results

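The 10 long noncoding RNAs described here, Malat1, Neat1, Kcnq1ot1, Airn, Firre, Tug1, Pvt1, Dleu2, Mir99ahg and Mir142hg, are transcripts that are mostly or partly retained in the nucleus. They were chosen by symbol, with measured values of the same cells known, and all 10 have a row among the 20034 gene symbols of the table. The cells are macrophages induced in culture (iMac): per the series title, mouse fibroblasts were turned into them by c-Myc alone, a transcription factor that drives growth and division. The 2 labelled samples are named cDNA and oligo for their library type. Cells of both are given as wild type, were lifted from the dish with EDTA and were captured in droplets on the DNBelab C4 system. Barcodes are not tied to either sample by name, so the deposited matrix was treated as 1 sample of 1 group. The labels used here give neither the promoter that drove c-Myc nor the number of cultures. Starting fibroblasts and macrophages from animals were not analysed here. With 1 sample no test between conditions exists, and the intervals given are of counting error alone.

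Of 6837 barcodes, 86 were left out for having fewer than 500 genes or more than 15% mitochondrial counts. The 6751 cells kept had a median of 17178 counts, from 1001 to 192369. The cells matched their label: all 17 macrophage markers, among them Csf1r, Cd68 and Tyrobp, were at 10 CPM (counts per 1000000 counts) or more and summed to 13918 CPM. Of 10 fibroblast markers, 6, the collagens Col1a1, Col1a2 and Col3a1 among them, had no row, and the other 4 summed to 2.54 CPM. Markers of T and NK cells summed to 1.51 CPM, those of B cells to 0.380 CPM, and those of monocytes and neutrophils to 198 CPM.

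Long noncoding RNAs of the nucleus act where they are made or in nuclear bodies, and they reach the cytoplasm little. Malat1 lies in nuclear speckles, which store splicing factors, and Neat1 is the scaffold of paraspeckles, bodies that hold back proteins and edited RNA. Kcnq1ot1 and Airn are made mainly from the paternal chromosome and silence imprinted genes around them. Firre, from the X chromosome, takes part in contacts between chromosomes. Tug1 is shared between nucleus and cytoplasm. Pvt1 lies beside Myc, and Dleu2, Mir99ahg and Mir142hg are host transcripts from which microRNAs are cut in the nucleus. When the nuclear envelope breaks down in mitosis, speckles and paraspeckles come apart. Ube2c, which helps the anaphase-promoting complex mark proteins for destruction, and Ccnb1, the cyclin of mitotic entry, are transcripts of cells in G2 and mitosis.

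The microRNAs are shown because they are what the 3 host transcripts are known for. Sequences and positions are those of RefSeq on GRCm38.p6, 5′ to 3′, with the seed (bases 2 to 8) in capitals. The counts below are of host RNA, and the mature microRNAs were not measured. Mir142hg holds both arms of miR-142a, at chr11:87756867-87756887 and chr11:87756903-87756925 on the plus strand:
miR-142a-5p: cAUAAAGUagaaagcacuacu
miR-142a-3p: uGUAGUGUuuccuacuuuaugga
Dleu2 holds miR-15a and miR-16, at chr14:61632075-61632096 and chr14:61631936-61631957 on the minus strand, whose 5p arms share the seed AGCAGCA:
miR-15a-5p: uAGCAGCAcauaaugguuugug
miR-16-5p: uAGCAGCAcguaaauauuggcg
Mir99ahg holds 3 microRNAs with 3 different seeds on the plus strand, at chr16:77598940-77598961, chr16:77599672-77599693 and chr16:77646279-77646300:
miR-99a-5p: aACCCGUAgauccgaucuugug
let-7c-5p: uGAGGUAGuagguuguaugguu
miR-125b-5p: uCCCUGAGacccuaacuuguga
All of these mature sequences lie in introns of their host in the GENCODE M21 annotation of GRCm38. The annotated precursor gene of miR-16, longer than the mature sequence, shares 13 exonic bases with Dleu2.

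Malat1 had the most counts of the members, at 205 CPM (95% interval 203 to 207) over all kept cells. It made up 73.6% of the 44677 counts of the 10 members. Neat1 followed at 18.4 CPM and Pvt1 at 12.2 CPM, and these 3 were the members at 10 CPM or more. Mir142hg at 9.58 CPM (9.11 to 10.1) and Kcnq1ot1 at 9.46 CPM (8.99 to 9.95) came next, and their intervals overlap. Tug1 at 7.35 CPM (6.93 to 7.78) and Dleu2 at 7.03 CPM (6.63 to 7.46) overlap likewise. Mir99ahg was at 5.41 CPM, Firre at 2.31 CPM and Airn, the lowest, at 1.70 CPM.

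CPM takes no account of length, and per kilobase of exon the order was another. Per kilobase of exon in GENCODE M21, Mir142hg had 35.6 CPM per kb over 0.269 kb of exon, of a gene span of 1.69 kb. Malat1 had 29.4 CPM per kb over 6.98 kb. Pvt1 followed with 1.75, Neat1 with 0.884, Tug1 with 0.755, Dleu2 with 0.621 and Airn with 0.472 CPM per kb. Mir99ahg had 0.378 and Firre 0.280 CPM per kb, and Kcnq1ot1, a single exon of 93.1 kb, had 0.102 CPM per kb. How the reads of introns or of a long unspliced transcript were counted is not given in the sources used here. Nor is the annotation used for counting, or whether counts grow with length. This order is therefore a description of the table, and Mir142hg is not read as more abundant than Malat1. Reads cannot be assigned to a strand from what is given. For that reason Kcnq1ot1 cannot be told apart from Kcnq1 over 121 shared exonic bases, Dleu2 from Gm26916 over 352, Mir99ahg from Gm11146 over 21, nor Tug1 from Morc2a over 483.

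Malat1 (chr19:5795690-5802672) and Neat1 (chr19:5824708-5845478) are neighbours on the minus strand, with 22035 bases between them. Kcnq1ot1 lies at chr7:143203458-143296549, Airn at chr17:12741311-12860136 and Firre at chrX:50555744-50635321. Dleu2 lies at chr14:61602839-61682373, Mir99ahg at chr16:77236317-77773427 and Mir142hg at chr11:87755577-87757270. Pvt1 lies at chr15:62037986-62378096 and Tug1 at chr11:3639785-3649673. The members share no chromosome apart from Malat1 with Neat1 and Mir142hg with Tug1.

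The counts were held by few cells. The 338 cells with the most Malat1, 5% of all, held 82.1% of its counts, and the highest single cell held 476. For Neat1 this share was 85.2%, for Kcnq1ot1 90.4% and for Mir99ahg 93.7%. For Tug1, at a CPM close to that of Dleu2, it was 50.3%, and no cell held more than 6 counts. Dleu2 lay between, with 69.9%, and so did Pvt1, with 76.3%. Firre and Airn were found in fewer cells than 338, so their 5% of cells held all counts by construction.

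To compare cells at the same depth, each of the 4312 cells with 10000 counts or more was reduced at random to 10000 counts, where 1 count is worth 100 CPM in a cell. A Malat1 count was then found in 20.5% of cells (19.3 to 21.7). Tug1 was found in 6.75%, Neat1 in 6.45% and Pvt1 in 6.17%, shares whose intervals overlap although Neat1 had the higher CPM of the 3. Dleu2 was found in 5.13%, Mir142hg in 4.75%, Kcnq1ot1 in 4.24%, Mir99ahg in 2.85%, Firre in 1.51% and Airn in 1.11%. At their own depth, 29.1% of the kept cells held a Malat1 count and 13.7% a Tug1 count. No cell type that should lack these RNAs was present in the matrix, so the share that free RNA gives was not measured.

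The cells at 10000 counts were parted by the sum of Ube2c and Ccnb1: 1532 cells with 0 counts (low), 2228 with 1 to 5 (middle) and 552 with 6 or more (high). The classes are ranges of a count and not cell types. Just inside the limit stood 121 cells with 6 counts and just outside it 162 with 5. The high cells differed in depth before reduction, with a median of 40638 counts against 27756 in low cells and 29122 in middle cells. The other 18 G2 and mitosis genes of a fixed list summed to 502, 1109 and 2296 CPM in low, middle and high cells, and all 18 were higher in high cells past 1.5-fold. Cenpf (107 against 5.03 CPM) and Plk1 (188 against 18.1 CPM) had the largest ratios of that list, and Birc5 and Cdk1 the highest levels. Because the members were chosen on this contrast, their values in it are a description with no test.

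Malat1 stood at 16.1 CPM (14.1 to 18.2) in low cells, 129 CPM (125 to 134) in middle cells and 626 CPM (606 to 648) in high cells. The 3 intervals are far apart. The log2 ratio of high over low cells, with 1 CPM added to both, was 5.20, and Ube2c and Ccnb1 aside, 0 of the 6480 genes at 10 CPM or more had a larger ratio. A Malat1 count was found in 9.79% of low, 19.1% of middle and 56.0% of high cells. Across finer steps the level was 16.1 CPM at 0 class counts, 34.2 at 1, 64.8 at 2, 309 at 3 to 5, 564 at 6 to 9 and 783 CPM at 10 or more. Both levels depended on which counts the reduction drew. Over 10 further draws the low level ran from 14.6 to 23.5 CPM and the high level from 575.5 to 617 CPM, each partly outside its Poisson interval. The high level of 626 CPM was above all 10 draws. The log2 ratio ran from 4.65 to 5.28 over these draws, with a median of 4.97. Reduced to 5000 counts, with 3 or more class counts as high, the log2 ratio was 2.86.

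**Figure D1:**
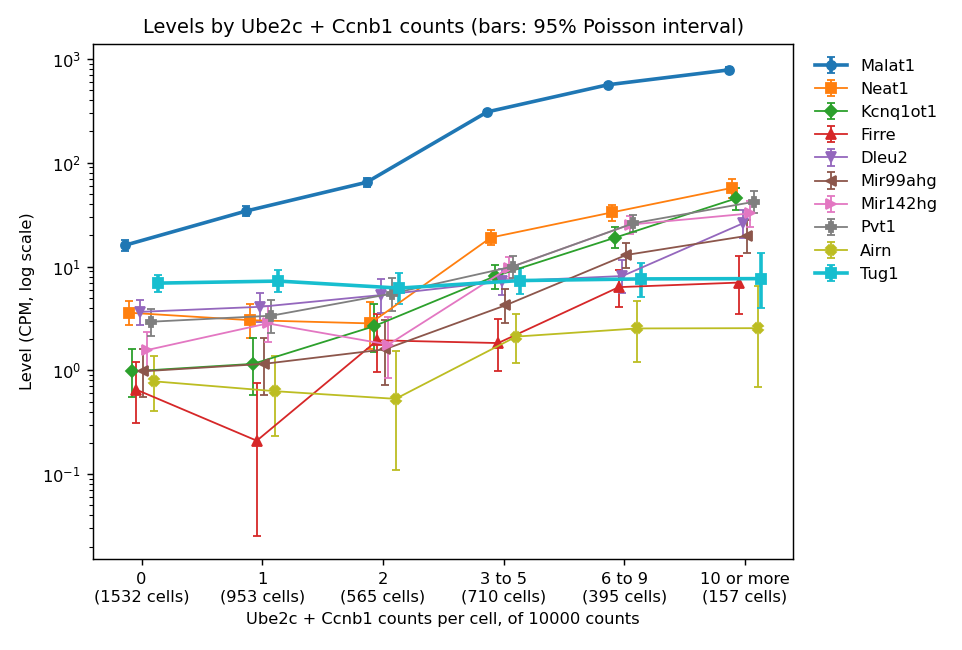
Levels (CPM, log axis) of the 10 members in cells reduced to 10000 counts, by their summed Ube2c and Ccnb1 counts, with 95% Poisson intervals. Malat1 climbed from 16.1 to 783 CPM, whereas Tug1 lay between 6.19 and 7.64 CPM at every step.

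Neat1, the paraspeckle scaffold transcribed beside Malat1, was at 3.59 CPM (2.70 to 4.67) in low, 8.08 CPM in middle and 40.04 CPM (34.9 to 45.7) in high cells, a log2 ratio of 3.16, which was 1.70 at 5000 counts with high cells from 3. Its steps were uneven: 3.59, 3.04 and 2.83 CPM at 0, 1 and 2 class counts, with overlapping intervals, then 19.01, 33.2 and 57.3 CPM. Neat1 per 100 Malat1 counts was 22.4 in low cells (16.4 to 30.1), 6.24 in middle and 6.39 in high cells (5.55 to 7.33). The value in low cells is of a single draw, and its interval leaves out the spread between draws. Over 10 further draws, low cells had 2.58 to 4.05 CPM Neat1 and 14.6 to 23.5 CPM Malat1. No difference in ratio between the classes is therefore read.

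The imprinted antisense RNAs differed from each other. Kcnq1ot1 was at 0.979 CPM in low, 3.73 CPM in middle and 26.4 CPM (22.3 to 31.1) in high cells, a log2 ratio of 3.79. That ratio was above that of Neat1 here, but with a second random seed it was 3.63 against 3.95 for Neat1, and with 10 CPM added in place of 1 it was 1.73 against 1.88. At 5000 counts with high cells from 3 it was 2.80. Its share of cells went from 0.849% to 17.6%. Airn was near the limit of detection, with 12 counts in low, 24 in middle and 14 in high cells. Its levels of 0.783 CPM (0.405 to 1.37) and 2.54 CPM (1.39 to 4.26) gave a log2 ratio of 0.99. That ratio was 0.40 without the 6% of cells with the most counts and 0.11 in the cells whose barcode names end in N1, which are both under the 1.5-fold limit. It was 1.43 in the cells with other name endings and 1.31 at 5000 counts with high cells from 3. Over 10 further draws it ran from 1.03 to 1.83.

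The 3 microRNA hosts were all higher in high cells. Mir142hg, the host of a microRNA of blood cells, was at 1.57 CPM (1.004 to 2.33) in low, 4.76 CPM in middle and 27.4 CPM (23.2 to 32.1) in high cells, a log2 ratio of 3.47. Mir99ahg was at 0.979 CPM, 2.24 CPM and 14.9 CPM, a log2 ratio of 3.002. Dleu2 was at 3.66 CPM (2.76 to 4.75), 5.39 CPM and 13.2 CPM (10.4 to 16.6), a log2 ratio of 1.61. At 5000 counts with high cells from 3, the log2 ratios were 1.68 for Mir142hg, 1.48 for Mir99ahg and 1.03 for Dleu2. The intervals of low and high cells do not overlap for any of the 3 hosts, while those of low and middle cells overlap for Dleu2.

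Pvt1, whose promoter is known to compete with that of Myc for enhancers, was at 2.94 CPM in low, 6.01 CPM in middle and 30.6 CPM (26.2 to 35.6) in high cells, a log2 ratio of 3.01, and of 1.86 at 5000 counts with high cells from 3. Myc itself was at 35.9 CPM (33.0 to 39.0) in low and 37.7 CPM (32.7 to 43.2) in high cells, where the intervals overlap. The Myc counts do not say whether they come from the cell's own gene or from introduced c-Myc. Firre was at 0.653 CPM in low, 1.17 CPM in middle and 6.52 CPM (4.57 to 9.03) in high cells, a log2 ratio of 2.19, and of 1.85 in that other setting. Tug1 was at 6.92 CPM (5.66 to 8.37), 7.00 CPM and 7.61 CPM (5.48 to 10.3), a log2 ratio of 0.12. Tug1 was found in 6.53%, 6.73% and 7.43% of low, middle and high cells, and it was the member whose 3 intervals overlapped in level and in share.

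**Figure D2:**
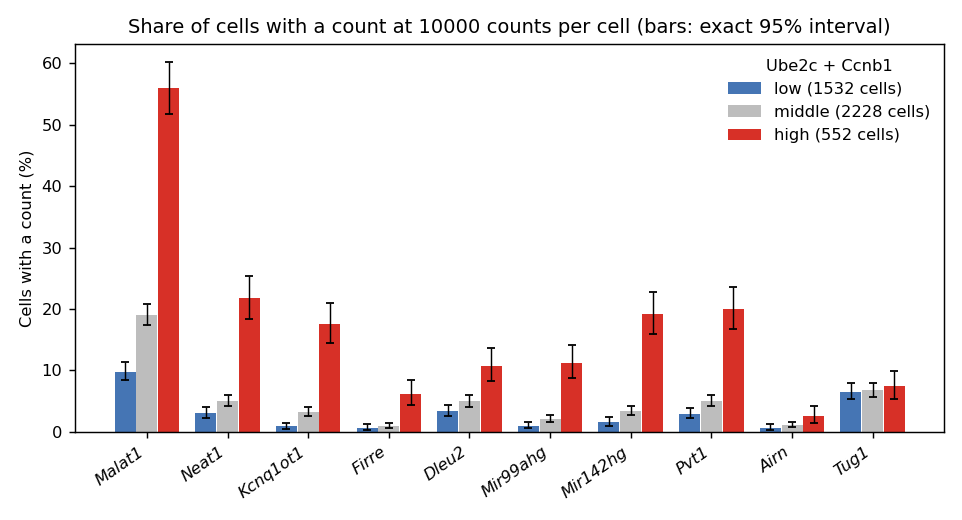
Share of cells (%) with at least 1 count of each member after reduction to 10000 counts, in cells low, middle and high for Ube2c plus Ccnb1, with exact 95% intervals. Malat1 was found in 56.0% of high and 9.79% of low cells, Tug1 in 7.43% and 6.53%.

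In all, 9 of the 10 members were higher past 1.5-fold in high cells and 0 were lower. Of the 10840 genes at 1 CPM or more, to which all 10 members belong, 21.7% were higher past that fold and 2.9% lower. Of the 6480 genes at 10 CPM or more, to which only Malat1 and Neat1 belong at this depth, 16.5% were higher and 1.48% lower. Nothing is read from the members' count against these shares, since the members were chosen on this contrast. The median log2 ratio was 3.004 over the 10 members and 0.24 over the genes at 1 CPM or more. Over the genes at 10 CPM or more it was 0.21. The classes also differed in signals that are not of these genes. Gm42418, a transcript at ribosomal RNA sequence, took 6.12% of the counts of low and 5.04% of those of high cells. Ribosomal protein genes took 33.8% and 30.9%, and the macrophage markers summed to 15733 and 12492 CPM. Their part in the members' values was not tested, apart from the count without Gm42418, AY036118 and ribosomal protein genes, which was again 9. Within each of 5 parts of equal number by depth before reduction, the log2 ratio of Malat1 was between 4.97 and 5.42, all of them cells of 10000 counts or more. For Dleu2 it ran from 0.20 to 2.23 over those parts and for Tug1 from -1.10 to 0.82.

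Among low cells, Malat1 was also parted by S phase genes. Cells with 5 counts or fewer over the summed S phase list had 20.8 CPM Malat1 (16.6 to 25.6, 419 cells) and those with 16 or more had 8.14 CPM (5.67 to 11.3, 430 cells). Neat1 was at 6.68 CPM (4.44 to 9.66) and 1.86 CPM (0.803 to 3.67), also without overlap in level, and Tug1 at 7.399 and 6.28 CPM with overlap. The shares of cells with a count did overlap. For Malat1 they were 12.4% (9.41 to 15.96) and 7.67% (5.34 to 10.6). For Neat1 they were 4.77% (2.94 to 7.28) and 1.86% (0.807 to 3.63). No difference by S phase genes is therefore read. For the other 7 members the intervals of these groups overlapped. The median depth before reduction was 25802 counts in the former and 30197 counts in the latter.

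Malat1 was not present in all high cells. Of the 552, 44.0% had 0 Malat1 counts of 10000, 17.6% had 1 to 4 and 38.4% had 5 or more. In low cells 90.2% had 0 and 0.522% had 5 or more. Over all classes, 376 cells with 5 or more held 88.3% of the Malat1 counts: 212 were high, 156 middle and 8 low cells. The limit was set with the values known, and it cuts a continuous range, with 32 cells at 4 counts and 33 at 5.

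The other members followed this parting of the high cells. In the 243 high cells with 0 Malat1, Neat1 was at 2.47 CPM (0.906 to 5.37), and in the 212 with 5 or more it was at 85.4 CPM (73.4 to 98.8). Kcnq1ot1 was at 1.65 CPM against 54.7 CPM, Mir142hg at 1.65 against 49.5 CPM and Pvt1 at 5.76 against 59.0 CPM. Mir99ahg was at 1.23 against 27.4 CPM and Dleu2 at 2.47 against 23.1 CPM. Firre had 1 count against 31 and Airn 1 count against 9. In the high cells with 0 Malat1, the intervals of all 9 other members overlap those of low cells. These intervals rest on few counts, from 1 for Firre and Airn to 14 for Pvt1, so the overlap is not read as equal levels. The share of all genes with such overlap was not computed. Between the high cells with 0 Malat1 and those with 5 or more, Tug1 was at 4.53 CPM (2.26 to 8.10) against 11.3 CPM (7.25 to 16.8), which overlap.

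The class genes were bounded by the choice of these cells, all of which hold 6 or more of their counts. Nothing is therefore read from their likeness between the Malat1 groups. Ube2c was at 630 CPM (599 to 662) in high cells with 0 Malat1 and 643 CPM (610 to 678) in those with 5 or more, and Ccnb1 was at 197 and 234 CPM. Other cell cycle genes, named after their values were seen, were lower or higher. The topoisomerase Top2a was at 247 CPM (228 to 267) with 0 Malat1 and 152 CPM (136 to 170) with 5 or more, whereas Cdc20, the activator of the anaphase-promoting complex, was at 186 CPM (169 to 204) and 225 CPM (205 to 246). The intervals overlap for Cenpf, at 100 CPM (87.8 to 113) and 125 CPM (110.0 to 140), and for Plk1, at 201 CPM (183 to 219) and 176 CPM (159 to 195). Median depth before reduction was 37196 and 46468 counts. Its part in the difference was not tested.

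**Figure D3:**
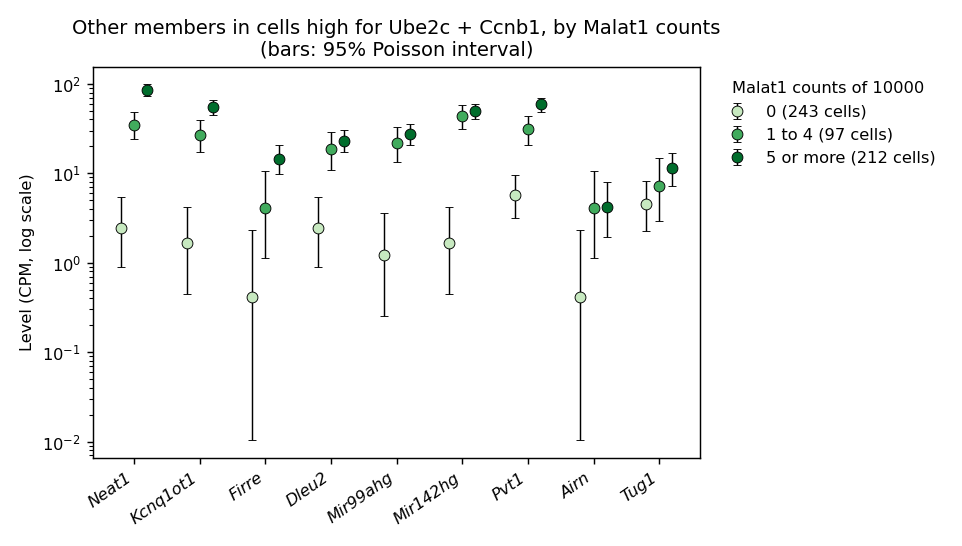
Levels (CPM, log axis) of the other 9 members in cells high for Ube2c plus Ccnb1, parted by their Malat1 counts of 10000, with 95% Poisson intervals. Neat1 was at 2.47 CPM in the 243 cells with 0 Malat1 and at 85.4 CPM in the 212 with 5 or more, while the intervals of Tug1 overlap.

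The shallow cells gave another picture in level. Among the 1773 cells of 1900 to under 10000 counts, reduced to 1900 counts, 1293 had 0 class counts, 319 had 1 and 161 had 2 or more. Malat1 was at 357 CPM (334 to 382), 475 CPM (422 to 533) and 418 CPM (349 to 498) in these 3 classes, a log2 ratio of 0.23 between the last and the first. The interval of the high class overlaps both others. These low cells are not the same class as the deep low cells, since 0 counts of 1900 is a wider limit than 0 of 10000. The other 18 G2 and mitosis genes summed to 795 CPM in shallow low and 502 CPM in deep low cells. Malat1 counts were found in 10.6% (8.97 to 12.4), 15.4% (11.6 to 19.8) and 29.2% (22.3 to 36.9) of the 3 classes. The interval of the high class lies above both others in share but not in CPM, so no order of level is read. Neat1 was at 64.3 CPM (54.7 to 75.2), 79.2 and 105 CPM (71.6 to 148).

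Of the 10 members, 3 were higher past 1.5-fold in shallow high cells, Neat1, Firre and Pvt1, each with an interval that overlaps that of low cells. Airn was lower, with 5 counts in low and 0 in high cells, the latter with an upper limit of 12.1 CPM. Of all 6740 genes at 10 CPM or more in these cells, 15.6% were higher and 12.8% lower. Here 1 count is worth 526 CPM in a cell, and Kcnq1ot1, Mir142hg and Dleu2 had 4 counts each in the high cells, with upper limits of 33.5 CPM. The macrophage markers summed to 13645 CPM in shallow low and 11719 CPM in shallow high cells. Barcodes with names ending in N1 made up 69.1% of the shallow cells and 33.5% of the deep ones. What the shallow cells are, and what part that naming has in their levels, was not tested.

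Over the full range of depth, levels were highest in the shallowest cells. In 5 equal parts of the kept cells by own counts, from shallow to deep, Malat1 was at 515, 237, 133, 122 and 255 CPM. Neat1 had the steepest course, at 122, 27.1, 7.83, 7.50 and 22.3 CPM. Mir142hg was at 21.1, 12.97, 5.90, 4.88 and 12.3 CPM. Each of these 3 was lowest in the fourth part and higher again in the deepest. Tug1 was at 8.42, 5.42, 6.42, 6.75 and 8.13 CPM, with an interval of 5.40 to 12.5 CPM in the shallowest part that contains the values of all others. Neat1 per 100 Malat1 counts was 27.1 in cells under 1900 counts, 14.96 in cells of 1900 to under 10000 and 7.97 in deeper cells, and the 3 intervals do not overlap. By mitochondrial share of the cell, from low to high, Malat1 was at 220, 249, 207, 226 and 136 CPM, and it was lowest where that share was highest.

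**Figure D4:**
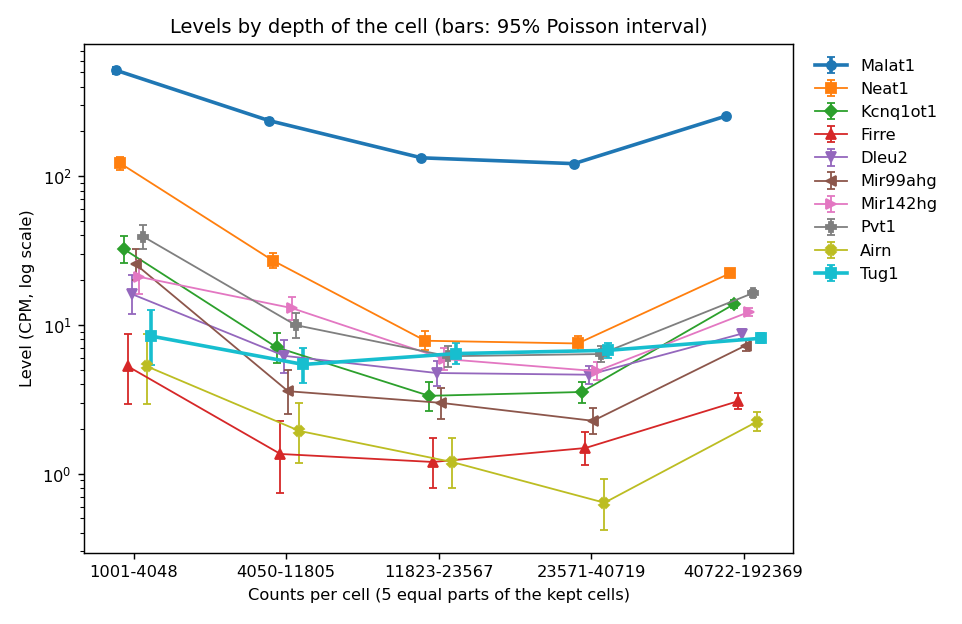
Levels (CPM, log axis) of the members in 5 equal parts of the 6751 kept cells by counts per cell, with 95% Poisson intervals. Malat1 and Neat1 were highest in the shallowest cells (515 and 122 CPM) and lowest in the fourth part (122 and 7.50 CPM).

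The members were found in the same cells more often than the product of their shares gives. At 10000 counts all 45 pairs were above that product, and for 34 the exact interval of the joint share lay above it. No share over pairs of other genes was computed, and the members were chosen on the Ube2c and Ccnb1 contrast. Nothing particular to the members is therefore read from this count of pairs or from those below. The median ratio of observed to product was 3.65, from 1.14 to 7.98. Malat1 and Neat1 were found together in 215 cells against 57.0 from the product, a ratio of 3.77. Neat1 was found in 24.3% of the cells with Malat1 and in 1.84% of those without. The highest ratio was that of Kcnq1ot1 with Firre, 7.98, on chromosomes 7 and X. Of the 9 pairs with Tug1, ratios ran from 1.14 to 1.61 and 2 had an interval above the product, against 32 of the 36 pairs without Tug1.

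Within the classes the pattern was held by middle and high cells. The interval lay above the product for 27 of 45 pairs in high cells, 28 in middle cells and 1 in low cells, where counts are few and 20 pairs were above. The median ratio was 1.77 in high, 3.28 in middle and 0.786 in low cells. In shallow cells, whose Ube2c and Ccnb1 classes differed in the share of cells with Malat1 more than in its CPM, 31 pairs had an interval above the product, with a median ratio of 9.05. None of these 31 was a pair with Tug1. Counting members per cell, 3 or more of the 10 were found in 30.8% of high (26.97 to 34.8), 4.40% of middle and 0.392% of low cells (0.144 to 0.850), and at most 7 were found in 1 cell. None was found in 37.0% of high and 73.6% of low cells.

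**Figure D5:**
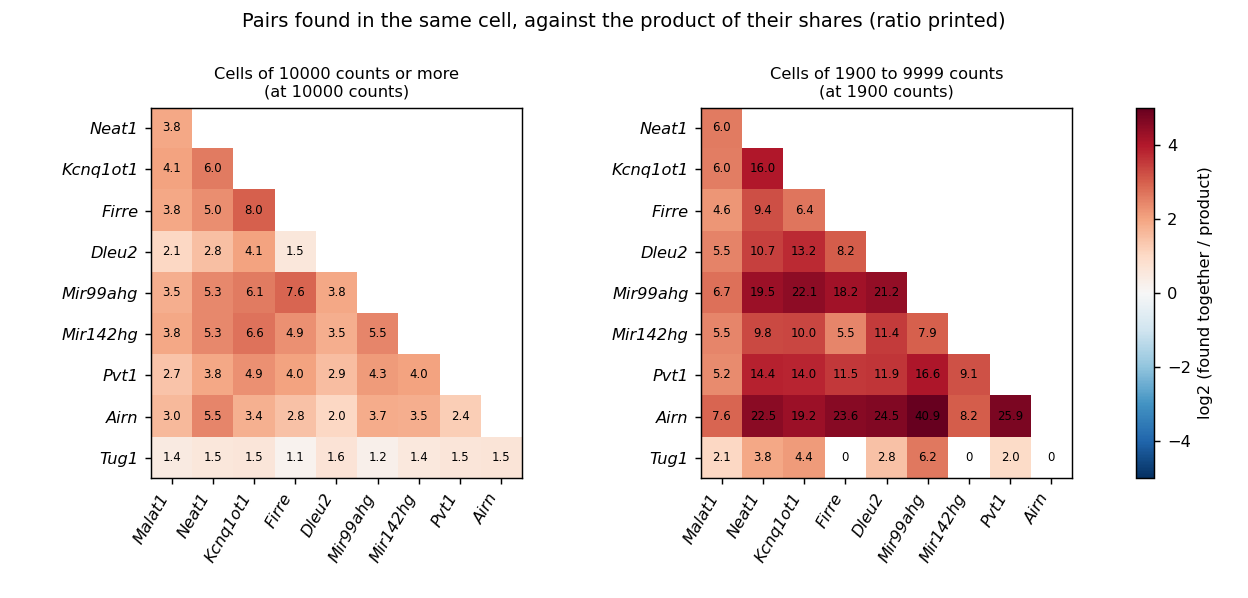
Ratio of cells holding both members of a pair to the number from the product of their shares (printed; colour on a log2 scale; 0 and no colour where no cell held both), in deep cells at 10000 counts and shallow cells at 1900 counts. Every pair in the deep cells is above 1, with Tug1 in the lowest row at 1.14 to 1.61.

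Genes tied to these RNAs by known function were compared between the same high and low classes, beside a median log2 ratio of 0.21 over all 6480 genes at 10 CPM or more, of which 16.5% were higher and 1.48% lower past 1.5-fold. With lists of 3 to 18 genes, nothing particular to a list is read from its count. Of 12 paraspeckle proteins at 10 CPM or more, 1 was higher past 1.5-fold and 0 lower, with a median of 0.32. That 1 was the RNA-binding protein Taf15, at 67.8 against 39.3 CPM. Sfpq, without which paraspeckles do not form, was at 152 against 102 CPM and did not reach the limit. Hnrnpk, an abundant RNA-binding protein of the list, was at 258 CPM over all cells. Of 12 nuclear speckle proteins 3 were higher and 0 lower, with a median of 0.44. Acin1 was at 112 against 64.7 CPM and Rbm25 at 159 against 102 CPM, and Srsf3 (363 CPM) and Son (228 CPM), the core protein of speckles, had the highest CPM.

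Nuclear exosome and surveillance factors, which degrade noncoding RNA in the nucleus, had 3 of 7 higher and 0 lower, with a median of 0.49. Of all genes at 10 CPM or more, 16.5% were higher and 1.48% lower. Zcchc7 was at 33.5 against 12.9 CPM and Zcchc8, of the nuclear exosome targeting complex, at 29.9 against 14.7 CPM. Exosc3 (54.9 CPM) and Exosc10 (24.7 CPM) had the highest CPM of these. Of 7 microRNA processing genes 1 was higher, Dgcr8, the partner of Drosha in cutting hosts, at 16.1 against 9.66 CPM, and 0 were lower. Xpo5, which carries precursors out of the nucleus, was at 25.9 CPM over all cells and Ago2 at 56.8 CPM. The median of that list was 0.36.

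Genes in the imprinted domains and next to the members gave few values. In the Kcnq1 domain, 3 of 8 genes were at 10 CPM or more, of which Tssc4 was lower, at 23.0 against 42.4 CPM, and Cd81 and Nap1l4 were not past the limit. Kcnq1, under that limit, was at 0.261 CPM (0.0711 to 0.669) in low and 4.89 CPM (3.22 to 7.12) in high cells. It overlaps Kcnq1ot1 on the opposite strand. None of the 3 genes of the Airn domain reached 10 CPM, and Igf2r was at 5.74 CPM (4.61 to 7.08) in low and 3.62 CPM (2.21 to 5.60) in high cells, with overlap. Of the genes beside members, Frmd8, Supt4a and Myc were at 10 CPM or more and not past 1.5-fold.

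Of 20 other long noncoding RNAs 16 had a row, and of the 8 at 10 CPM or more 0 were past 1.5-fold in either direction, with a median of -0.19. The members counted above are mostly below 10 CPM, so the counts of the 2 lists do not rest on the same limit. Gas5, a spliced snoRNA host, at 573 CPM over all cells, was at 525 CPM in high and 604 CPM in low cells. Snhg8 was at 187 CPM over all cells, Lncpint at 44.6 against 32.6 CPM and Epb41l4aos at 40.9 against 52.1 CPM. Below 10 CPM and named after their values were seen, Xist, the RNA that coats the inactive X chromosome, was at 21.2 CPM (17.5 to 25.4) in high and 2.09 CPM (1.43 to 2.95) in low cells. Its neighbour Ftx had 26 counts in high and 1 in low cells. Mir17hg, with 6 counts in low cells, was the other one below 10 CPM past 1.5-fold, with a log2 ratio of 0.70. In the high cells with 0 Malat1, Xist was at 3.29 CPM (1.42 to 6.49), and in those with 5 or more at 42.9 CPM (34.6 to 52.7). Among 18 S phase genes 7 were lower and 0 higher, beside 1.48% lower and 16.5% higher of all genes at 10 CPM or more. Ung was at 4.53 against 35.6 CPM and Cdc6 at 3.44 against 20.4 CPM, and Mcm6 and Pcna had the highest CPM.

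Likeness across the 4312 cells was described by Pearson's r of log counts over genes at 50 CPM or more, with no test, since cells share 1 library and depth after reduction. For Malat1 the nearest genes were Ube2c (0.44), Arl6ip1 (0.37), Pid1 (0.35), Cenpa (0.34) and Reep4 (0.33). For Neat1 they were Malat1 (0.51), Zeb2 (0.25), Ube2c (0.24), Pid1 (0.24) and Arl6ip1 (0.23). For Kcnq1ot1 they were Malat1 (0.42), Zeb2 (0.26), Ube2c (0.25), Arl6ip1 (0.21) and Pid1 (0.21). The 3 lists share Ube2c, Pid1 and Arl6ip1. Ube2c is a class gene and the members were chosen on the class contrast, so nothing is read from this sharing.

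Promoters are shown for Malat1 and Kcnq1ot1, which at 10000 counts had the largest ratios between classes of the members with an entry, and for Tug1, which had the smallest. RefSeq entries on GRCm38.p6, 250 bases before to 50 after the start, were found for 7 members, and Neat1, Mir142hg and Pvt1 had none. The windows shown, all on the minus strand, are chr19:5802623-5802922, chr7:143296498-143296797 and chr11:3648765-3649064. The capitals mark CCAAT, the box bound by NF-Y, and TTTGAA, the core of the element common to G2 and mitosis genes, on either strand. The motifs do not overlap each other in these windows.
Malat1: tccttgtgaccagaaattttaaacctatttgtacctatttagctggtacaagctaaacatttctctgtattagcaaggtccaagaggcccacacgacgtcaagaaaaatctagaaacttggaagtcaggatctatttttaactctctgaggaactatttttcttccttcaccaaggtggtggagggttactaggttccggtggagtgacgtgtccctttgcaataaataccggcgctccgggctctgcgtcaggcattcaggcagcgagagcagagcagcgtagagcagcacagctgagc
Kcnq1ot1: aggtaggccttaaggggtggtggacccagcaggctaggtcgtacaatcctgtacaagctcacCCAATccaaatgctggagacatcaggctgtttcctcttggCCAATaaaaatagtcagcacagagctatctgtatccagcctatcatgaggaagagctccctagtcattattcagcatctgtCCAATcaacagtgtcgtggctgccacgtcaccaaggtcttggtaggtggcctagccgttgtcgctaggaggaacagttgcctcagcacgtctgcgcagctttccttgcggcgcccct
Tug1: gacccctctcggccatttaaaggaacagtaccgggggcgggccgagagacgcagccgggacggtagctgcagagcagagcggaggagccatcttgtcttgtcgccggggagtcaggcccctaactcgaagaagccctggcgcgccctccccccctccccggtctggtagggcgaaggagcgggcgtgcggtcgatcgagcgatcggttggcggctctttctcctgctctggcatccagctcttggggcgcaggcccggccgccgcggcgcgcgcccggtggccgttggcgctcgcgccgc
CCAAT was found in 1 of the 7 member promoters, that of Kcnq1ot1, and TTTGAA in 1, that of Mir99ahg. Of all 32851 promoters, 37.4% hold CCAAT and 17.9% hold TTTGAA. Of the 16 promoters matched for the G2 and mitosis list, 13 hold CCAAT and 12 hold TTTGAA. A match is a run of letters in this window and no measure of binding.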

How the data were processed

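The authors deposited 1 matrix of whole-number counts per gene and barcode, not normalized, and the tool that wrote it was PISA 0.12, per the file headers. Cell Ranger and mm10 are named per the submitters' processing notes, with no stated role. Not given in the sources used here are the aligner, the annotation, the strand setting, the cell calling and whether unique molecular identifiers were counted. Barcodes with under 500 genes or over 15% mitochondrial counts were dropped. Levels are counts summed over cells per 1000000 counts (CPM) with exact Poisson intervals, and cell shares are given with Clopper-Pearson intervals (exact), both at the 95% level and for counting error only. Counts were drawn without replacement to equal depth (10000 or 1900 per cell, seed 11). Log2 ratios have 1 CPM added. No doublet caller was run and doublets were left in, with the 6% deepest cells left out as an alternative. No p-value was computed. The members and gene lists were chosen with earlier results of these data known. The rule names all members, of each list the 2 highest genes and the 2 with the largest ratio at 10 CPM or more, and the 5 genes most alike Malat1, Neat1 and Kcnq1ot1, and a few of these genes are not reported here. Positions come from GENCODE M21 (GRCm38), and sequences from RefSeq. Scripts used numpy 2.4.6, scipy 1.17.1 and pandas 2.3.3 and were tested on simulated data.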

Additional observations from a re-analysis of the deposited data

Results flagged for a closer look

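In the 86 barcodes left out of every comparison, 243219 counts in all, 8 members stood above their level in the kept cells with intervals that do not overlap. The share of all genes that did so was not computed, so nothing particular to the members is read from this count. Malat1 was at 4774 CPM (4503 to 5056) against 205 CPM in kept cells, and 53 of the 86 barcodes held a Malat1 count. Neat1 was at 284 CPM and Mir142hg at 247 CPM, followed by Dleu2 at 82.2 CPM and Kcnq1ot1 at 78.1 CPM. Mir99ahg at 49.3 CPM, Pvt1 at 41.1 CPM and Firre at 32.9 CPM rest on 12, 10 and 8 counts. Tug1 and Airn had 1 count each. Malat1 was at 6227 CPM in the 50 barcodes with more than 15% mitochondrial counts and at 906 CPM in the 47 with fewer than 500 genes, 11 of which missed both limits. The parts of depth and of the mitochondrial share in these values were not tested. Gm42418 took 285289 and 506579 CPM of the same barcodes.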

How the results depend on the processing

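The number of members at 10 CPM or more, 3, became 7 when Gm42418, AY036118 and ribosomal protein genes were left out of the total, and 5 as a mean over cells of their own CPM. The number of members higher past 1.5-fold in high cells, 9, was 3 in an alternative chosen after seeing the data. That alternative took cells of 1900 to under 10000 counts, reduced to 1900 with high cells from 2. Airn was lower past that fold in it. There Kcnq1ot1 (-0.036), Mir142hg (-0.52) and Airn (-1.60, 0 counts in high cells) had log2 ratios of the opposite sign, and the cause was not tested. The number of members higher was 8 or 9 under all 11 other settings and 9 in each of 10 further draws, added likewise. Airn was under the limit without the 6% deepest cells (0.40), with 10 CPM added (0.22) and in barcodes named N1 (0.11). In the N1 barcodes Tug1 was lower past the limit, at -0.66. Malat1 was between 2.86 and 5.52 under these 11 settings. The share of genes at 10 CPM or more higher past 1.5-fold, 16.5%, was 7.59% with 10 CPM added, 8.66% with high cells from 3 counts, 9.77% at 5000 counts with high cells from 3, and 24.8% with high cells from 10 counts. Pairs with an interval above the product, 34, numbered 31 to 36. No paired analysis was possible because the matrix is 1 sample. Depth limits Airn and Firre most, with 272 and 370 counts in all.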
